A study of Mus musculus with 8 samples.

Results

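The secreted metalloproteases Adamts1, Adamts4, Adamts5, Adamts7, Adamts8, Adamts9, Adamts12, Adamts15, Adamts16 and Adamts20 were followed in the aorta of newborn mice. The mice were wild type (WT) or knockouts (KO) of the lysyl oxidase gene. The protease genes were taken by gene symbol from the array's annotation. All 10 had a probe set, out of 22180 genes with a probe set of their own. All 10 were also bright enough to be tested, against 16635 genes in all. KO pups were knockouts of Lox, whose product oxidises lysines so that elastin and collagen fibres can crosslink. The labels give no more of the allele. KO and WT pups were p0 animals on an albino C57BL/6J background. RNA came from pools of 8 same-genotype pups, 1 pool per array and 2 pools in each of 4 groups, so differences between single pups are not seen. The groups were KO ascending aorta, WT ascending aorta, KO descending aorta and WT descending aorta. The ascending piece began at the aortic valve and stopped where the ductus arteriosus joins, and the descending piece ran between the vena cava and the diaphragm. All values are log2 signals normalised by RMA, so a difference of 1 is a 2-fold difference in signal. Each group mean is over n = 2 pools. SE and intervals of differences rest on the spread between pools within groups over all 8 arrays.

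ADAMTS proteases are zinc enzymes released outside the cell, where repeats of the thrombospondin type hold them to the matrix. Adamts1, Adamts4, Adamts5, Adamts8, Adamts9, Adamts15 and Adamts20 are known as proteoglycanases, which cut versican or aggrecan, the large proteoglycans that bind hyaluronan and keep a vessel wall hydrated. Adamts7 and Adamts12 are known for cutting cartilage oligomeric matrix protein (Comp), and Adamts16 for cutting fibronectin. The collagen-processing relatives Adamts2, Adamts3 and Adamts14, which trim procollagen, form a separate branch and are not members here.

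Lox read 8.87 and 8.74 in KO ascending aorta, against 11.47 and 11.60 in WT ascending aorta. It read 8.56 and 8.51 in KO descending aorta, against 11.41 and 11.24 in WT. The genotype labels thus matched the Lox signal on all 8 arrays. The KO pools kept a Lox signal well above the limit of 4.11 below which genes were left out, and its source was not tested. The summed linear signal of 5 smooth muscle markers (Acta2, Tagln, Myh11, Cnn1 and Smtn) was 13589 to 14759 in KO and 13889 to 14335 in WT pools across both segments, with 0 of 5 called between genotypes in either segment.

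**Figure D1:**
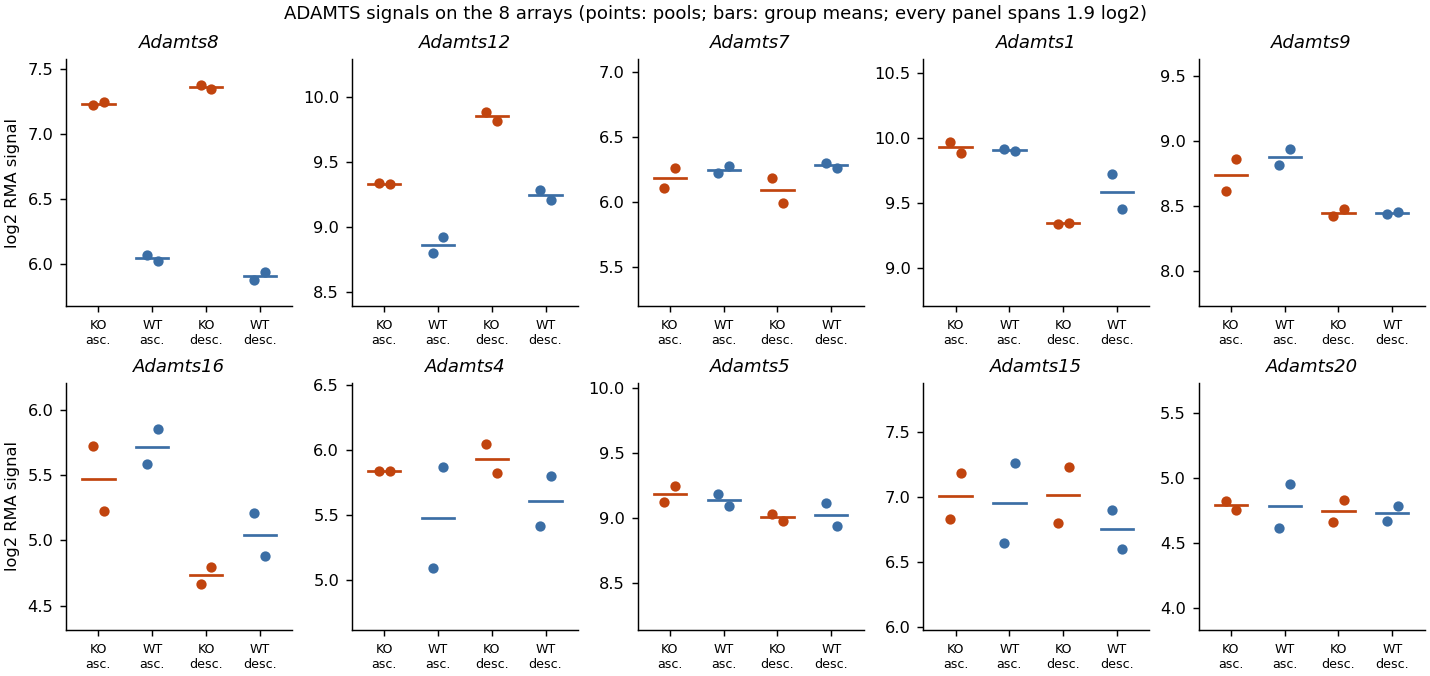
Each panel shows 1 ADAMTS gene, with the log2 RMA signal on the y axis and the 4 groups on the x axis (asc., ascending; desc., descending); points are pools and bars are means of 2 pools. Adamts8 and Adamts12 separate KO from WT arrays in both segments, and Adamts1, Adamts9 and Adamts16 sit higher in ascending than in descending aorta.

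Adamts8 had the largest genotype difference of the 10 genes, and Adamts12 was the other member that passed the test. Adamts8, a proteoglycanase also known for an anti-angiogenic activity, read 7.22 and 7.24 in KO ascending aorta, against 6.07 and 6.02 in WT ascending aorta. It read 7.37 and 7.34 in KO descending aorta, against 5.87 and 5.94 in WT descending aorta. Every KO pool was above every WT pool. The rise was 1.18 (SE 0.095, adjusted p = 0.0023) in the ascending aorta and 1.45 (SE 0.095, adjusted p = 0.00145) in the descending aorta, which are 2.27-fold and 2.74-fold differences in signal. In order of mean level the groups were KO descending, KO ascending, WT ascending and WT descending. Neither the KO segments (-0.13, adjusted p = 0.696, ascending minus descending) nor the WT segments (0.14, adjusted p = 0.634) passed the test. In whole-tissue RNA a difference in the number of cells that make a transcript and a difference in transcript per cell cannot be told apart.

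Adamts8 had 2 probe sets, and the brighter one is the one described above. The dimmer probe set read 5.14 and 5.39 in KO ascending aorta, against 5.16 and 4.88 in WT ascending aorta, so the groups overlapped. In the descending aorta it read 5.55 and 5.99 in KO, against 4.95 and 5.04 in WT, with no overlap. With all probe sets tested separately its differences were 0.24 (SE 0.17, adjusted p = 0.488) in the ascending and 0.78 (SE 0.17, adjusted p = 0.0616) in the descending aorta. Averaged over both segments it rose by 0.51 (SE 0.12, adjusted p = 0.0331). The probe sets thus had the same direction but different sizes, and their positions in the gene were not known here. With the mean of both probe sets in place of the brighter one, the Adamts8 rise was 0.71 in the ascending and 1.12 in the descending aorta, and it still passed the test in each.

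**Figure D2:**
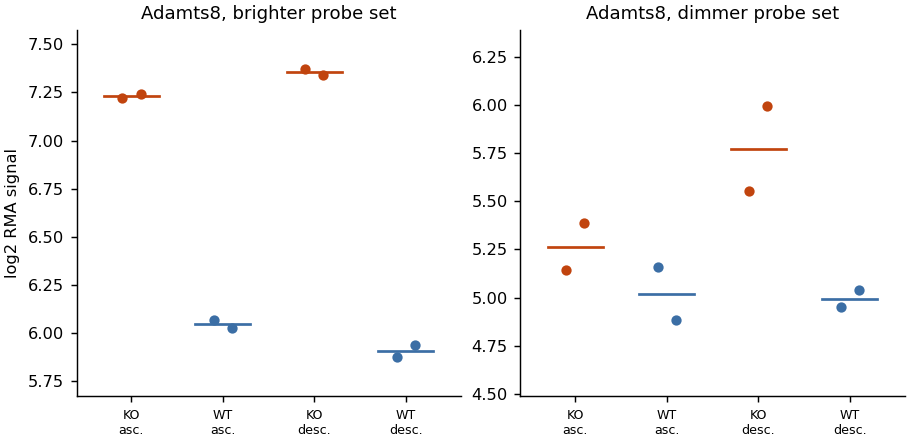
The log2 RMA signal of both Adamts8 probe sets (y axis) is shown by group (x axis), with points for pools and bars for means of 2 pools; the panels span equal ranges. On the brighter probe set KO pools read 7.22 to 7.37 and WT pools 5.87 to 6.07, and on the dimmer one KO and WT pools overlap in the ascending aorta.

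Adamts12, which cuts Comp, read 9.33 and 9.33 in KO ascending aorta, against 8.80 and 8.92 in WT ascending aorta. It read 9.88 and 9.82 in KO descending aorta, against 9.28 and 9.20 in WT. KO was above WT in both segments without overlap, and descending was above ascending in both genotypes without overlap. A lack of overlap with 2 pools a group was not particular to called genes. Of the members not called, Adamts1, Adamts4, Adamts7 and Adamts16 also had KO and WT pools without overlap in the descending aorta. The share of all genes without overlap was not counted. The rise with the knockout was 0.47 (SE 0.10, adjusted p = 0.0496) in the ascending and 0.61 (SE 0.10, adjusted p = 0.0306) in the descending aorta, or 1.39-fold and 1.52-fold. The ascending call is at the edge of the threshold and ended under 14 of 18 alternatives, which include leaving out any 1 of the 8 arrays, while the difference stayed between 0.41 and 0.54. The descending call ended without any 1 of the 4 descending arrays, with a difference of 0.57 to 0.64 over the alternatives.

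Adamts7, which shares Comp with Adamts12 as a known substrate and is known in human genetics as a coronary artery disease locus, did not pass. It read 6.11 and 6.26 in KO ascending aorta, against 6.22 and 6.28 in WT, and 6.18 and 5.99 in KO descending aorta, against 6.30 and 6.26 in WT. Its differences were -0.06 (95% interval -0.32 to 0.19) and -0.19 (-0.44 to 0.06).

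Of the 10 members, 2 passed in the ascending and 2 in the descending comparison of KO with WT, all of them higher in KO. Of all genes tested, 2.74% passed in the ascending and 2.28% in the descending comparison. The members, and the gene lists given further on, were chosen with earlier results of these data known. A share above that of all genes is therefore no separate evidence. The median difference over the members was 0.03 in the ascending and 0.01 in the descending aorta, against 0.01 and -0.01 over all genes. Averaged over both segments, the same members passed, with Adamts8 at 1.32 (SE 0.07, adjusted p = 0.00012) and Adamts12 at 0.54 (SE 0.07, adjusted p = 0.00475). In that averaged comparison 11.4% of all genes passed.

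**Figure D3:**
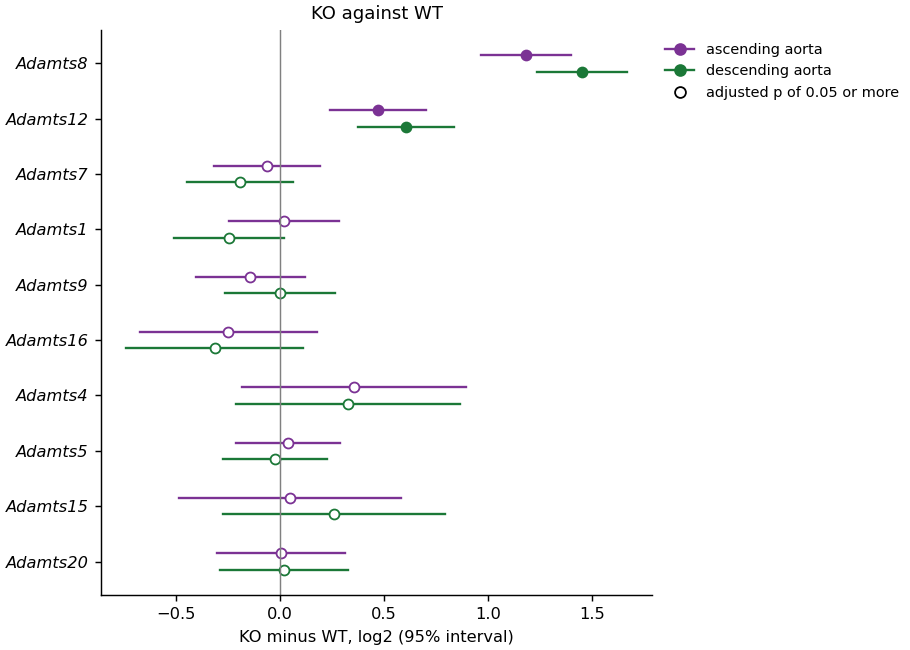
KO minus WT differences in log2 signal (x axis) with 95% intervals are shown for the 10 ADAMTS genes (y axis) in ascending and descending aorta, from limma on 8 arrays; open points had an adjusted p of 0.05 or more. Adamts8 lies at 1.18 and 1.45 and Adamts12 at 0.47 and 0.61, and the intervals of the other 8 genes include 0.

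Markers of other cells moved with genotype on the same arrays. The summed linear signal of 6 neutrophil markers was 2958 to 3133 in KO ascending pools, against 481 to 907 in WT ascending pools, with 4 of 6 called higher. In the descending aorta it was 1640 to 2621 in KO, against 807 to 1227 in WT, with 0 of 6 called. For 5 macrophage markers it was 1640 to 1693 in KO and 1370 to 1442 in WT ascending pools, and 2004 to 2137 in KO and 1577 to 1659 in WT descending pools, with 2 of 5 called higher in the descending aorta. For 6 endothelial markers it was 3013 to 3103 in KO and 3781 to 3979 in WT ascending pools, and 3458 to 3523 in KO and 4170 to 4260 in WT descending pools, with 2 and 1 of 6 called lower. For 5 fibroblast markers it was 8502 to 9158 in KO and 10416 to 10832 in WT pools of both segments, with 2 of 5 called lower in the ascending aorta and 1 lower and 1 higher in the descending aorta. For 5 liver markers it was 1257 to 2919 in KO and 330 to 459 in WT descending pools, with 5 of 5 called higher. For 5 lung markers it was 126 to 132 in KO and 678 to 1421 in WT descending pools, with 2 of 5 called lower. For 5 fat markers, 2 were called lower in the ascending and 1 in the descending KO aorta. None of these markers was left out as dim, and their part in the rise of Adamts8 and Adamts12, or in the differences of the substrates and inhibitors given further on, was not tested.

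The other proteoglycanases did not pass between KO and WT. Adamts4, known as aggrecanase 1, read 5.84 and 5.84 in KO ascending aorta, against 5.09 and 5.87 in WT ascending aorta. It read 6.05 and 5.83 in KO descending aorta, against 5.42 and 5.80 in WT descending aorta. WT ascending replicate 1 was the lowest of the 8 arrays for Adamts4, and the averaged difference of 0.34 had a 95% interval of -0.04 to 0.72. Without WT ascending replicate 2 that difference was 0.54 and passed. Adamts5, known as aggrecanase 2, kept within 8.93 to 9.24 on all 8 arrays, with intervals of -0.21 to 0.29 in the ascending and -0.27 to 0.23 in the descending aorta. Those intervals leave out a 1.5-fold difference for Adamts5, whereas for Adamts4 they reach 0.89 and 0.86.

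Adamts15, another proteoglycanase, varied as much within groups as between them. It read 6.82 and 7.18 in KO ascending aorta, against 6.65 and 7.26 in WT ascending aorta, and 6.79 and 7.22 in KO descending aorta, against 6.90 and 6.60 in WT descending aorta. Its differences were 0.05 (95% interval -0.48 to 0.58) and 0.26 (-0.27 to 0.79). In the RefSeq gene table of GRCm38.p6 Adamts15 and Adamts8 are next to each other among the protein-coding genes of chromosome 9. Adamts1 and Adamts5 are likewise neighbours on chromosome 16, and neither passed between KO and WT. Adamts20, whose loss gives the belted coat of mice, read between 4.61 and 4.95 on all arrays, close to the limit of 4.11 below which genes were left out. Its differences between KO and WT were 0.01 (-0.30 to 0.32) and 0.02 (-0.29 to 0.33).

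The position along the aorta gave another set of members, which shared Adamts12 with the genotype comparisons. Averaged over genotypes, 4 of 10 members passed between ascending and descending aorta, against 4.07% of all genes, with 3 higher and 1 lower in the ascending aorta. Here too the choice of members was made with earlier results known, so the larger share is no separate evidence. Adamts16 was higher by 0.71 (SE 0.13, adjusted p = 0.0213), Adamts1 by 0.45 (SE 0.08, adjusted p = 0.0196) and Adamts9 by 0.36 (SE 0.08, adjusted p = 0.0497), which are 1.63-fold, 1.37-fold and 1.28-fold. Adamts12 was lower in the ascending aorta by 0.45 on the log2 scale (SE 0.07, adjusted p = 0.00999), a signal 1.37-fold higher in the descending aorta.

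Adamts1, a proteoglycanase whose reduced dose is known to let the mouse aorta dilate, read 9.97 and 9.88 in KO ascending aorta, against 9.34 and 9.35 in KO descending aorta. In WT it read 9.91 and 9.89 in the ascending, against 9.72 and 9.45 in the descending aorta. The ascending pools were above the descending pools in both genotypes. Within a genotype the difference was 0.58 (SE 0.12, adjusted p = 0.0551) in KO and 0.32 (SE 0.12, adjusted p = 0.292) in WT, so neither passed alone. Between genotypes Adamts1 differed by 0.02 (95% interval -0.24 to 0.29) in the ascending and -0.24 (-0.51 to 0.02) in the descending aorta.

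Adamts9, which is known to cut versican in the developing heart and great vessels of the mouse, read 8.61 and 8.86 in KO ascending aorta, against 8.42 and 8.48 in KO descending aorta. In WT it read 8.81 and 8.94 in the ascending, against 8.44 and 8.45 in the descending aorta. Its ascending and descending pools did not overlap in either genotype, and KO and WT pools overlapped in both segments. Adamts16, which cuts fibronectin, read 5.72 and 5.23 in KO ascending aorta, against 4.67 and 4.80 in KO descending aorta. In WT it read 5.58 and 5.86 in the ascending, against 5.21 and 4.88 in the descending aorta. The descending signals of Adamts16 were thus close to the limit of 4.11 below which genes were left out. Its segment difference was 0.74 (adjusted p = 0.115) in KO and 0.68 (adjusted p = 0.158) in WT, and its KO minus WT differences of -0.25 and -0.31 did not pass (adjusted p = 0.525 and 0.411).

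Within single genotypes the counts were smaller. In KO 1 of 10 members passed, Adamts12 at -0.52 (SE 0.10, adjusted p = 0.0491), against 1.48% of all genes. An unadjusted p under 0.05 was found for 4 members in KO, against 12.1% of all genes. That call ended under 14 of 18 alternatives, each left-out array among them, with the difference between -0.55 and -0.49. In WT 0 of 10 passed in limma, also against 1.48% of all genes, and 4 had an unadjusted p under 0.05, against 12.3% of all genes, with Adamts12 at -0.38 (SE 0.10, adjusted p = 0.14). The averaged call of Adamts12 held in all 8 fits without 1 array, and the count of 4 was then 1 to 3. Adamts1 lost its averaged call without any 1 of 6 arrays (all but KO ascending replicate 2 and WT descending replicate 1), with a difference of 0.38 to 0.52. Adamts9 lost it without any 1 array but KO ascending replicate 1, with 0.30 to 0.42, and also with no filter on dim genes, with arrays shifted to 1 median and with all probe sets tested separately. Adamts16 lost it without KO ascending replicate 1, WT ascending replicate 2, either KO descending array or WT descending replicate 2, with 0.59 to 0.83. It was too dim to be tested with the filter at the 50th percentile. The summed linear signal of 5 fat markers was 2780 to 3394 in KO ascending, against 4157 to 4531 in KO descending pools, and 4302 to 5034 in WT ascending, against 6050 to 6444 in WT descending pools. In the averaged comparison 4 of those 5 were lower in the ascending aorta, as were 2 of 6 endothelial, 2 of 3 tested Schwann and sympathetic nerve, 1 of 5 lung and 1 of 5 heart muscle markers. In the same comparison 1 of 4 mesothelium markers was higher in the ascending aorta. For 5 liver markers 0 were called there, but 1 was lower in the ascending aorta in KO and 1 was higher in WT. Their summed signal was 1042 to 1148 in KO ascending, against 1257 to 2919 in KO descending pools. In WT it was 804 to 807 in ascending, against 330 to 459 in descending pools. The part of these cells in the segment differences was not tested.

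**Figure D4:**
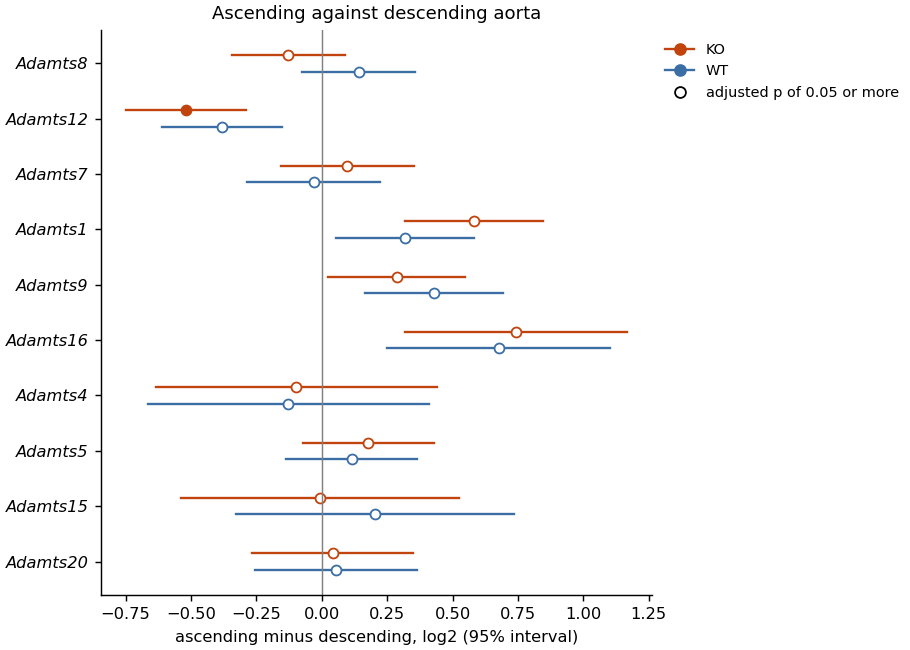
Ascending minus descending differences in log2 signal (x axis) with 95% intervals are shown for the 10 ADAMTS genes (y axis) in KO and WT, from limma on 8 arrays; open points had an adjusted p of 0.05 or more. Adamts12 lies at -0.52 in KO and -0.38 in WT, and Adamts1, Adamts9 and Adamts16 lie above 0 in both genotypes.

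The RefSeq promoter table of GRCm38.p6 matched 4 of the 10 members by symbol, namely Adamts1, Adamts9, Adamts12 and Adamts20. The 250 bases before the start site are shown for Adamts1 and Adamts12, which had opposite segment differences. Capitals mark matches on either strand to the TATA box (spelled as TATAAA), the GC box (spelled as GGGCGG), the AP-1 site (spelled as TGANTCA), the TEAD site (spelled as GGAATG) or an E-box (spelled as CACGTG). The windows are chr16:85803114-85803363 on the minus strand for Adamts1 and chr15:11064523-11064772 on the plus strand for Adamts12.
Adamts1: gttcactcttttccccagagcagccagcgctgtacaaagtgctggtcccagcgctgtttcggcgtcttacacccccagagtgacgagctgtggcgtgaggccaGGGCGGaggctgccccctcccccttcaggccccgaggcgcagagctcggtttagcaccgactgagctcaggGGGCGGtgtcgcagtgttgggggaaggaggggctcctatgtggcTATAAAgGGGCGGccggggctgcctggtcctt
Adamts12: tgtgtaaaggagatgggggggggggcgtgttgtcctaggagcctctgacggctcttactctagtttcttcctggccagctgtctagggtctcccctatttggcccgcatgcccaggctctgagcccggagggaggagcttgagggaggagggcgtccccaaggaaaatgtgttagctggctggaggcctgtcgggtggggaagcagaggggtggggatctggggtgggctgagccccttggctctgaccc
The Adamts1 window held 1 TATA box, from -32 to -27, and 3 GC boxes, beginning at -147, -76 and -25, and the Adamts12 window held none of these letters. The Adamts9 window, not shown, held no TATA box and a GC box from -7 to -2, and Adamts9 was higher in the ascending aorta. The Adamts20 window, not shown, held GC boxes beginning at -142, -62 and -48 and no TATA box, and Adamts20 was not called between segments. Among all 32851 windows of the same length in the table, 12.4% held the TATA box, 32.7% the GC box, 6.75% the AP-1 letters, 12.6% the TEAD letters and 6.02% the E-box. The Adamts1 window had 15 CpG pairs and 65.6% G and C, and the Adamts12 window 6 CpG pairs and 63.2%. A match is a run of letters and was not tested as a site of binding. A link between these letters and the segment differences was not tested.

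Whether the knockout difference itself depended on the segment was tested as an interaction. Of the 10 members 0 passed in limma and 0 had an unadjusted p under 0.05. Of all genes 0% passed and 5.6% had an unadjusted p under 0.05. For Adamts8 the rise was smaller in the ascending than in the descending aorta by 0.27, with a 95% interval of the interaction from -0.57 to 0.04 (adjusted p = 0.895). For Adamts12 the interval was -0.46 to 0.19 (adjusted p = 0.961). For Adamts1 it was -0.11 to 0.64 (adjusted p = 0.913). With 2 pools a group these intervals are wide, and a missing call does not show equal effects.

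The genes most like Adamts8 over the 8 arrays, by Pearson correlation of log2 signal, were Rgs19 (r = 0.991), Alg3 (0.991) and Rap1gds1 (0.991). Alg3, a mannosyltransferase of N-glycan assembly, rose by 0.94 (SE 0.10, adjusted p = 0.00527) in the ascending and 0.95 (SE 0.10, adjusted p = 0.00564) in the descending KO aorta. Rgs19, a regulator of G protein signalling, differed by 0.40 (adjusted p = 0.0636) and 0.44 (adjusted p = 0.0539), and Rap1gds1, an exchange factor for small GTPases, by 0.40 (adjusted p = 0.0696) and 0.51 (adjusted p = 0.0424). Those most like Adamts12 were Gys1 (r = 0.988), muscle glycogen synthase, Stx2 (0.984), a syntaxin, and Ccdc157 (0.983). Stx2 differed between KO and WT by 0.45 (adjusted p = 0.0648) in the ascending and 0.52 (adjusted p = 0.0477) in the descending aorta. Gys1 differed by 0.22 (adjusted p = 0.246) and 0.29 (adjusted p = 0.154), and Ccdc157 by 0.13 (adjusted p = 0.505) and 0.14 (adjusted p = 0.48), so neither passed in a single segment. These correlations are over arrays that fall into genotype and segment groups and are descriptions. The genes were picked by likeness on the same arrays, so a difference between KO and WT follows from the choice. Their adjusted p-values are therefore no separate evidence.

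Among the listed substrates and binding partners of ADAMTS enzymes, 15 of 16 were tested. The arrays measured RNA, and neither protease activity nor cleavage of a substrate was measured. A link between protease and substrate signals was not tested. In each segment 3 were higher and 1 was lower in KO, against 2.74% of all genes called in the ascending and 2.28% in the descending comparison. The list was chosen with earlier results of these data known, so its larger share is no separate evidence. The median difference was 0.09 in the ascending and 0.15 in the descending aorta, and the medians over all genes were 0.01 and -0.01. Vcan, versican, the main proteoglycan substrate in vessels, read 10.57 and 10.74 in KO ascending aorta, against 11.19 and 11.18 in WT. In the descending aorta it read 10.41 and 10.43 in KO, against 10.96 and 10.93 in WT. It fell by 0.53 (SE 0.10, adjusted p = 0.0375) and by 0.52 (SE 0.10, adjusted p = 0.0433), without overlap, while Adamts8 and Adamts12 rose on the same arrays. Either Vcan call ended without any 1 of the 8 arrays, and the call averaged over segments (-0.53, adjusted p = 0.00507) held in each of those fits.

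Thbs1, thrombospondin 1, a substrate of Adamts1, read 10.48 and 10.56 in KO ascending aorta, against 9.18 and 8.72 in WT. It read 9.99 and 9.70 in KO descending aorta, against 8.80 and 8.64 in WT. It rose by 1.57 (adjusted p = 0.00579) and 1.12 (adjusted p = 0.0214). Thbs2, thrombospondin 2, rose by 0.54 (adjusted p = 0.0374) in the ascending aorta and differed by 0.29 (adjusted p = 0.182) in the descending aorta. Fmod, fibromodulin, a small proteoglycan of collagen fibrils, rose by 0.96 (adjusted p = 0.0164) and 1.01 (adjusted p = 0.0164). Ccn2, connective tissue growth factor, rose by 0.67 (adjusted p = 0.037) in the descending aorta and differed by 0.56 (adjusted p = 0.0503) in the ascending aorta. The Thbs2 and Ccn2 calls ended without any 1 array, and with the mean of its probe sets Ccn2 differed by 0.33 in the descending aorta. The descending calls of Thbs1 and Fmod ended without any 1 descending array, with differences of at least 0.98 for Thbs1 and 0.94 for Fmod. The ascending Fmod call ended without either KO ascending array or WT ascending replicate 2, with a difference of 0.75 to 1.16.

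Acan, aggrecan, did not pass between KO and WT, at -0.12 (adjusted p = 0.642) and 0.03 (adjusted p = 0.924). Like Adamts1, it was higher in the ascending aorta in the averaged comparison, by 0.71 (SE 0.09, adjusted p = 0.00276). It read 10.70 and 10.74 in KO ascending aorta, against 10.02 and 10.15 in KO descending aorta, and 10.88 and 10.80 in WT ascending aorta, against 10.19 and 9.91 in WT descending aorta. Acan is also on the list of 7 cartilage markers, of which 6 were tested. In the averaged comparison 1 of the 6, Acan, was higher and 1, Comp, was lower in the ascending aorta, and the median difference of the 6 was 0.04. The summed linear signal of the 6 cartilage markers other than Acan was 254 to 266 in KO ascending, against 239 to 246 in KO descending pools, and 217 to 219 in WT ascending, against 226 to 246 in WT descending pools. Comp, the substrate of Adamts7 and Adamts12, was lower in the ascending aorta by 0.62 (SE 0.12, adjusted p = 0.0276) in the averaged comparison, the direction of Adamts12. Between KO and WT it differed by 0.49 (adjusted p = 0.172) and 0.10 (adjusted p = 0.808). Fn1, fibronectin, the substrate of Adamts16, differed between KO and WT by 0.07 (adjusted p = 0.763) and 0.15 (adjusted p = 0.462).

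**Figure D5:**
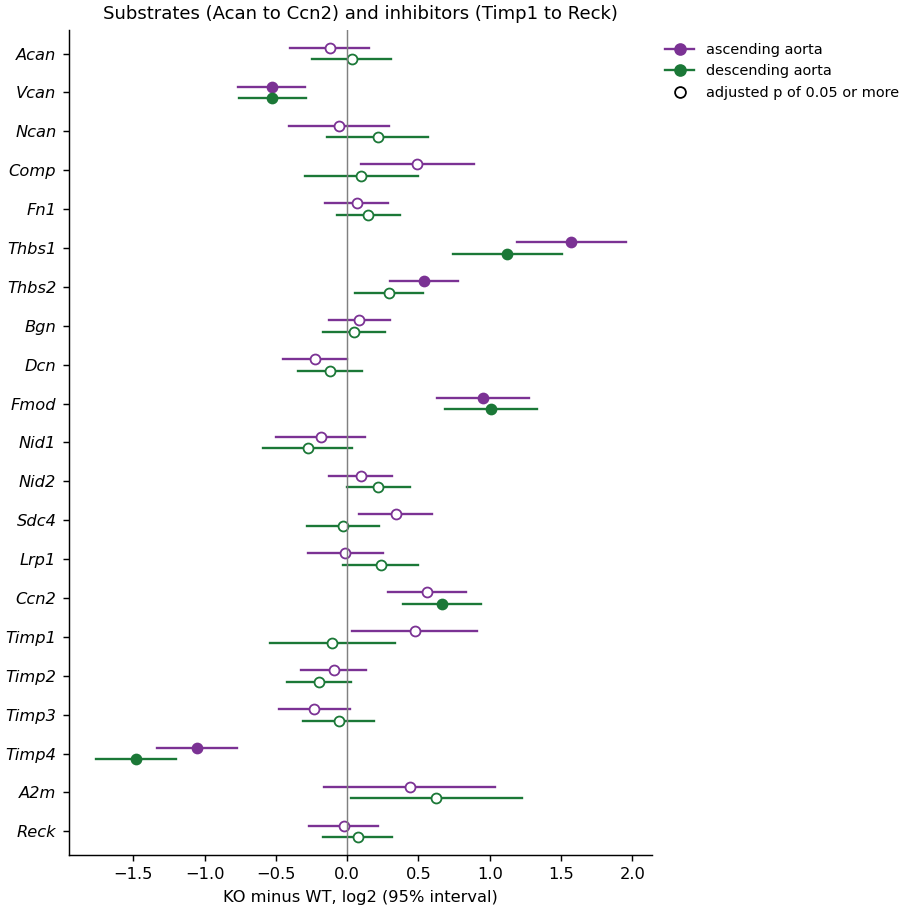
KO minus WT differences in log2 signal (x axis) with 95% intervals are shown for the tested substrates and partners (Acan to Ccn2) and for inhibitors (Timp1 to Reck; the uptake receptor Lrp1, on both lists, is drawn once) in ascending and descending aorta. Vcan lies at -0.53 and -0.52 and Timp4 at -1.05 and -1.48, and Thbs1 lies at 1.57 and 1.12.

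Of 8 genes for inhibition and clearance, 7 were tested and 1 passed, lower in KO in each segment, with medians of -0.02 and -0.06. Timp4, a tissue inhibitor of metalloproteases, read 8.36 and 8.27 in KO ascending aorta, against 9.31 and 9.42 in WT. It read 7.71 and 7.50 in KO descending aorta, against 9.20 and 8.98 in WT. It fell by 1.05 (adjusted p = 0.00816) and by 1.48 (adjusted p = 0.00407). In the ascending aorta the adjusted p was 0.0575 with WT ascending replicate 2 left out. Timp3, the tissue inhibitor known to act on Adamts4 and Adamts5, differed by -0.23 (adjusted p = 0.299) and -0.06 (adjusted p = 0.82), and Lrp1, which takes ADAMTS proteins up into cells, by -0.01 (adjusted p = 0.966) and 0.23 (adjusted p = 0.319).

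Of the 9 ADAMTS proteases that are not members, 7 were tested and 0 passed in limma between KO and WT in either segment, with 1 at an unadjusted p under 0.05 in each segment. Of all genes, 19.1% in the ascending and 18.8% in the descending comparison had an unadjusted p under 0.05. The collagen-processing Adamts3 differed by 0.15 (adjusted p = 0.632) and 0.35 (adjusted p = 0.25), and Adamts14 by 0.37 (adjusted p = 0.149) and -0.23 (adjusted p = 0.35). The ADAMTS-like proteins have the family's matrix-binding repeats but no protease. Of these, 0 of 7 passed in either segment in limma (3 and 2 at an unadjusted p under 0.05), and 3 were higher and 1 lower when averaged over segments, where 11.4% of all genes were called. Those called were Adamtsl2 (0.47, adjusted p = 0.0379), Adamtsl3 (0.44, adjusted p = 0.0464), Adamtsl5 (0.30, adjusted p = 0.027) and Thsd4 (-0.32, adjusted p = 0.0265). The Adamtsl5 and Thsd4 calls ended without any 1 array, the Adamtsl2 call without any 1 but WT descending replicate 2, and the Adamtsl3 call without any 1 but KO ascending replicate 1 and KO descending replicate 2. Among 10 genes of activation, cofactors and glycosylation, 0 passed in either segment in limma (2 at an unadjusted p under 0.05 in each, a share near that of all genes). Furin, the convertase that removes the inhibiting propeptide, differed by -0.0027 and 0.01, and Pofut2, which adds fucose to thrombospondin repeats, was higher by 0.37 (adjusted p = 0.0424) in the averaged comparison, a call that ended without any 1 array but WT ascending replicate 1.

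Of 12 hyaluronan partners, 11 were tested. Tnfaip6, a hyaluronan-binding protein induced in inflammation, rose by 1.58 (SE 0.30, adjusted p = 0.0347) in the ascending KO aorta, and Hapln1, the link protein that fixes versican and aggrecan to hyaluronan, fell by 1.17 (SE 0.22, adjusted p = 0.0388) in the descending KO aorta. They were the only members of that list called in either segment, and averaged over segments Cemip, which degrades hyaluronan, was also higher, by 0.46 (adjusted p = 0.0271), a call that ended without any 1 array but replicate 1 of either ascending group. Tnfaip6 lost its call without any 1 of the 4 ascending arrays or of the WT descending arrays, and Hapln1 without any 1 of the arrays other than KO descending replicate 1.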

How the data were processed

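The deposited log2 signals came from Affymetrix Expression Console with the RMA method, per the submitters' processing notes, which give no version; probe positions were not used here. Of 41345 probe sets, 23521 had 1 gene symbol in the platform table, and those with several (1814) or none (16010) were not used. The probe set with the highest mean stood for its gene, and genes whose mean fell under the 25th percentile (4.11 log2) were left out. Group means of all 8 arrays were fitted without covariates in limma 3.58.1 (R 4.3.3) with eBayes. Benjamini-Hochberg adjustment ran over 16635 genes, and an adjusted p under 0.05 is a call. The number of arrays limits the precision. P-values, SE and intervals rest on the spread between pools within groups over all 8 arrays, with 4 residual degrees of freedom. The eBayes step draws that spread toward the spread of all genes tested, with 4.51 prior degrees of freedom. The labels do not say whether pools shared litters. Members, gene lists, markers and motifs were chosen with earlier results of these data known. Named genes were all members, called genes of each list with up to 2 uncalled ones, and for Adamts8 and Adamts12 the 3 genes of highest correlation that were not predicted genes, clone names, small RNAs or chemosensory receptors. Genes named otherwise were chosen after their values were seen. Plots used matplotlib 3.10.9 (python 3.11.15).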

Additional observations from a re-analysis of the deposited data

How the results depend on the processing

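The direction of every called member was the same under all alternatives run, and the Adamts8 calls between KO and WT held in each. The count of members called between KO and WT in the ascending aorta, 2, became 1 without the filter on dim genes, with arrays shifted to 1 median, with the replicate number as a block, with all probe sets tested separately, with only the arrays compared, with a minimum of 1.5-fold, and without any 1 array (1 to 1). In the descending aorta, 2 became 1 with only the arrays compared and was 1 to 2 without 1 array. Averaged over segments, 2 became 1 with the 1.5-fold minimum and 3 without WT ascending replicate 2, where Adamts4 joined. Between ascending and descending aorta in KO, 1 became 0 under the same 6 settings that lowered the ascending count and without any 1 array (0 to 0), and 2 with the filter at the 50th percentile, the trended robust prior or cyclic loess, where Adamts1 joined. In WT, 0 became 2 (Adamts9 and Adamts12) with the trended robust prior. Averaged over genotypes, 4 became 1 with the 1.5-fold minimum and was 1 to 3 without 1 array. That count also fell, through Adamts9, without the filter on dim genes, with arrays shifted to 1 median and with all probe sets tested separately. With the filter at the 50th percentile Adamts16 was not tested and so could not be counted. Counts over all genes were 64 to 1014 (ascending) and 20 to 922 (descending) against 455 and 380. They were 54 to 430 in KO and 63 to 444 in WT between segments against 247 in each, 464 to 2604 (genotype averaged) against 1902, 360 to 951 (segment averaged) against 677, and 0 to 11 against 0 for the interaction. Of 59 member tests not called, 4 were called under some alternative. The replicate block changed no other count of members. Same-numbered pools deviated together with correlations of -0.10 to 0.13 across genes between groups, and the labels tie no number to a litter or day, so the numbers were not taken as pairs. A planned comparison of levels between genes was not run, since signals of different probe sets are not comparable.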

Other observations

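Some genes around the ADAMTS proteases had KO effects of different size in the segments, and they were chosen after their values were seen. None passed the interaction test of limma. Adamts14, a procollagen peptidase, read 7.71 and 7.86 in KO ascending aorta, against 7.30 and 7.52 in WT ascending aorta, and 7.63 and 7.53 in KO descending aorta, against 7.90 and 7.73 in WT descending aorta. The KO pools were thus above the WT pools in the ascending and below them in the descending aorta, and the interaction was 0.61 (SE 0.17, adjusted p = 0.775). Tnfaip6 read 8.99 and 8.37 in KO ascending aorta, against 6.92 and 7.28 in WT, and 8.70 and 7.91 in KO descending aorta, against 8.08 and 7.61 in WT, with an interaction of 1.12 (SE 0.42, adjusted p = 0.839). Hapln1 averaged 7.02 ± 0.08 in KO and 7.07 ± 0.04 in WT ascending aorta, and 6.69 ± 0.44 in KO and 7.86 ± 0.36 in WT descending aorta (SD, n = 2 each), with an interaction of 1.12 (SE 0.31, adjusted p = 0.775). The highest link protein signals were those of the WT descending pools.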
